A study of Mus musculus with 6 samples.

Results

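The 7 genes Fos, Fosb, Fosl1, Fosl2, Jun, Junb and Jund encode the Fos and Jun proteins. They were chosen by gene symbol from the annotation of the array, with earlier results of these data known. They are 7 members beside 22180 genes that carry a probe set of their own in the whole series. Of the 7, 6 had a probe set of their own, and Jund had 2. All 6 passed the filter on low values described with the levels. The only probe set annotated to Fosl1 is annotated to Ccdc85b as well, a gene whose interval overlaps that of Fosl1 in assembly GRCm38.p6. Its values are given for the shared probe set and are not attributed to either gene.

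Transcripts were measured on 6 single-colour arrays of total RNA from 3 mouse cancer cell lines. LLC is a Lewis lung carcinoma line, AE17 a malignant mesothelioma line and MC38 a colon adenocarcinoma line. Each line has 1 array titled sh Ctrl, with the genotype label wild type, and 1 titled sh Spp1, with the genotype label Spp1 depletion. A short hairpin RNA lowers a transcript by RNA interference, and Spp1 encodes the secreted integrin ligand osteopontin. The labels do not say whether the controls carried a control hairpin, or whether a line is 1 clone or a pool. All cells grew in the same medium with fetal bovine serum, and no further treatment is recorded. No probe set used here names Spp1, so the direction of every comparison rests on the labels. Each value within a line sets 1 array against 1 array, so the shRNA comparison has the 3 lines as its replicates.

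AP-1 is a family of dimeric transcription factors with a leucine zipper that holds 2 proteins together and a basic region that contacts DNA. Jun proteins can pair with one another or with Fos proteins, while Fos proteins bind DNA as partners of Jun. Growth factors, serum, cytokines and stress act through MAP kinases on Fos, Fosb, Jun and Junb, which are immediate early genes with short-lived messages. Fosl1 and Fosl2 are induced later, and Jund is present in most resting cells.

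The promoters of Fos, Fosb and Junb are shown. Among the members with a probe set of their own, these transcripts had the highest mean ratios of sh Spp1 over sh Ctrl. That of Jun, with a lower mean log2 ratio of 0.16 after quantile normalization, is shown beside them. Jund had the mean closest to 0, at -0.03, and its promoter is not printed. The sequences come from RefSeq (GRCm38.p6), which gave a window for 6 of the 7 genes. Each runs 5′ to 3′ on the strand of the gene and ends at the base before the most upstream annotated start of the gene. The windows are chr12:85473640-85473889 on the plus strand for Fos, and chr7:19310119-19310295, chr8:84978749-84978998 and chr4:95052223-95052472 on the minus strand for Fosb, Junb and Jun. Capitals mark the core of the cyclic AMP response element (CRE), TGACG, and the TATA box, TATAAA.
Fos: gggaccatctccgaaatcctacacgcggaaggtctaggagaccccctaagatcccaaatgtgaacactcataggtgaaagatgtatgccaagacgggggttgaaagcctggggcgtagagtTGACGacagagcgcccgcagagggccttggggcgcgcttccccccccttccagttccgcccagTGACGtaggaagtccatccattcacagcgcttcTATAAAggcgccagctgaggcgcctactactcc
Fosb: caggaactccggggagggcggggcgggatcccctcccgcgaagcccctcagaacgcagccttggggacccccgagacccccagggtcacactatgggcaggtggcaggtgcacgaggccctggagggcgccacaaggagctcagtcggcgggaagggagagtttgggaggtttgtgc
Junb: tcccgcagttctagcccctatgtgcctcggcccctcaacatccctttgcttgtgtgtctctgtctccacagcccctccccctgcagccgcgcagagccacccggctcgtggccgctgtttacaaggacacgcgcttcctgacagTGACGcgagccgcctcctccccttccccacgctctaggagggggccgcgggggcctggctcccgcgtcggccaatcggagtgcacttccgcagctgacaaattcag
Jun: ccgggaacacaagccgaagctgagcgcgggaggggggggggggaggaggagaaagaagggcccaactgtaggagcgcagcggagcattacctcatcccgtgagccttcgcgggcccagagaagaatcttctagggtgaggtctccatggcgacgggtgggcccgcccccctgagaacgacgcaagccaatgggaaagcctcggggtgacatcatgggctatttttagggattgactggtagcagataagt

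Each window of 250 bases before to 50 after the start was searched on both strands. The CRE core TGACG was found in those of Fos, at positions -129 to -125 and -66 to -62, of Fosb at -60 to -56 and of Junb at -106 to -102, counted from the start. The match of Fosb lies inside a longer annotated transcript and so beyond the sequence printed. It was in 20.8% of 32851 promoter windows, and was added to the search after the sequences were read. TATAAA stood at -33 to -28 in Fos and within the first bases of the Junb transcript, and was in 13.6% of all windows. The full CRE, TGACGTCA, which includes TGACG, was in 1.79%, the AP-1 site TGANTCA in 7.81% and the CArG box, bound by serum response factor, in 1.63%. None of these 3 was found in the windows of the 6 genes. Only these letters inside these windows were searched, so sites farther from the start or spelled otherwise would be missed. A match describes letters and shows no binding.

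Levels are log2 intensities after quantile normalization, which gives the arrays 1 distribution, and each gene is compared only with itself. The brightness floor, a log2 intensity of 4.49, is the 30th percentile of the mean over all probe sets. The deposited intensities had medians of 26.6 to 64.2 on the 6 arrays, and were not on 1 scale. The AE17 arrays stood apart from each other. They correlated across probe sets at r = 0.939, against 0.979 for the LLC pair and 0.982 for the MC38 pair. Each AE17 array was more like every array of the other lines, with correlations of 0.942 to 0.954. Keratin Krt8 had 11.08 on the AE17 sh Ctrl array and 6.47 on the sh Spp1 array. Every AE17 ratio, fold and line mean given here rests on this pair. Whether the hairpin or another difference between these arrays lies behind the AE17 ratios was not tested.

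The marker lists did not single out the labelled tissues. The lines are named here by their labels, on which every comparison between lines rests, and Msln goes against those of AE17 and MC38. Msln, which marks mesothelium, had levels of 9.87 and 9.96 on the MC38 arrays, and 5.13 and 5.34 on those of AE17. Bnc1 and Gata6 were also higher on both MC38 arrays than on both AE17 arrays. Upk3b was lower, and Wt1, Lrrn4 and Pdpn overlapped between these lines. All 7 mesothelial markers were measured, and their summed level was 8.71 and 10.31 in AE17, 11.20 and 11.22 in MC38, and 9.15 and 8.84 in LLC, sh Ctrl first. Of 7 intestinal markers the epithelial adhesion gene Epcam lay under the floor on every array, those of MC38 included. Cdh1, Vil1, Cdx2, Krt8 and Krt18 were at or above the floor on all 6 arrays, and Krt20 on 3. The list summed to 8.13 and 8.37 in MC38, 11.26 and 8.06 in AE17, and 10.02 and 10.30 in LLC. Of 5 lung epithelial markers the club cell gene Scgb1a1 lay under the floor throughout, and the sums ran from 7.46 to 7.95. Sftpc, Sftpb and Foxa2 were at or above the floor on all 6 arrays, and Nkx2-1 on 5. Among markers of other cells, the pan-leukocyte gene Ptprc, the macrophage gene Adgre1 and the endothelial gene Tek lay under the floor on every array. Other markers of these cells were at or above it on all 6 arrays, namely the macrophage genes Cd68 and Csf1r and the endothelial genes Pecam1, Cdh5 and Kdr. Cd68 had 6.51 and 7.43 on the LLC arrays, 7.31 and 8.71 on those of AE17 and 7.18 and 6.64 on those of MC38, sh Ctrl first, and Csf1r lay between 5.06 and 5.29. The leukocyte sums, over 6 measured of 7 listed, were 7.97 and 7.68 in MC38, 8.09 and 9.05 in AE17, and 7.58 and 8.13 in LLC. The 4 endothelial markers summed to between 6.89 and 7.70. The part of other cells in the AP-1 values was not tested.

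The first comparison asked how AP-1 transcripts differ with the hairpin against Spp1. Fosb, a Fos protein that also exists as the truncated delta-FosB, had a ratio above 0 in every line. In bulk RNA, more cells with a transcript and more of it per cell cannot be told apart. LLC cells went from 5.60 to 6.34, AE17 cells from 5.76 to 6.50 and MC38 cells from 6.23 to 7.32. These are folds of 1.67, 1.67 and 2.14, and the log2 ratios averaged 0.86 ± 0.21 (SD, n = 3 lines). All 3 sh Spp1 levels lay above all 3 sh Ctrl levels, as they did for Junb and for 5.74% of the genes tested. In LLC the Fosb ratio depended on the scaling: it was 0.0075 in the values as deposited, or 0.47 relative to the median gene. The mean as deposited was 0.54. Junb, a Jun protein that can restrain the activity of Jun, went from 7.55 to 8.49 in LLC and from 7.92 to 9.56 in AE17, folds of 1.91 and 3.12, and from 8.14 to 8.21 in MC38. The MC38 arrays hardly differed in Junb, so the mean log2 ratio of 0.88 ± 0.79 (SD, n = 3 lines) came from LLC and AE17. It was 0.50 without AE17 and 1.43 with arrays centred on their medians.

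Fos, the prototype of the family, went from 5.76 to 7.30 in AE17, a 2.91-fold difference, and from 5.28 to 5.74 in MC38. In LLC it had 4.78 on the sh Ctrl array and 4.69 on the sh Spp1 array, both close to the brightness floor. The Fos level was thus lowest in LLC, where its ratio says little, and the mean log2 ratio was 0.64 ± 0.83 (SD, n = 3 lines). This mean was 0.25 in the values as deposited, 0.18 without AE17 and 1.0 without LLC. Fosl2, which encodes Fra-2, had 8.74 and 9.05 on the LLC arrays, 8.39 and 9.0 on those of AE17 and 9.23 and 9.40 on those of MC38, sh Ctrl first. All its ratios were above 0 and under 2-fold after quantile normalization, with a mean of 0.37 ± 0.23 (SD, n = 3 lines). With arrays centred on their medians the Fosl2 ratios were 1.11, 1.21 and 0.70 in LLC, AE17 and MC38, with a mean of 1.01, where the median gene itself had 0.33, 0.22 and 0.26. The mean was 0.24 without AE17.

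The probe set shared by Fosl1, which encodes Fra-1, and Ccdc85b had 9.69 and 10.59 on the LLC arrays, 8.11 and 9.24 on those of AE17 and 9.58 and 9.93 on those of MC38, sh Ctrl first. It was higher on the sh Spp1 array in every line, with log2 ratios of 0.90, 1.12 and 0.35. Fitted together with the probe sets of several symbols, its mean log2 ratio was 0.79 with a standard error of 0.22, and limma gave an adjusted p of 0.718.

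Jun, the founding Jun protein, went from 10.13 to 10.39 between the LLC arrays and from 10.33 to 10.54 between those of MC38, while both AE17 arrays had 10.03. Its log2 ratios averaged 0.16 ± 0.14 (SD, n = 3 lines), 0.40 in the values as deposited, 0.87 with arrays centred, 0.24 without AE17 and 0.10 without LLC. Jund, which slows the proliferation of fibroblasts, had 8.72 and 8.91 on the LLC arrays, 9.48 and 9.28 on those of AE17 and 9.12 and 9.04 on those of MC38, sh Ctrl first. The mean log2 ratio was -0.03 ± 0.20 (SD, n = 3 lines). Its dimmer probe set had ratios of 0.28, 0.23 and -0.11, so the 2 probe sets differed in sign in AE17. The mean ratio of Jund was above 0 in the values as deposited, with each array centred on its median, with its probe sets averaged and without AE17.

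**Figure D1:**
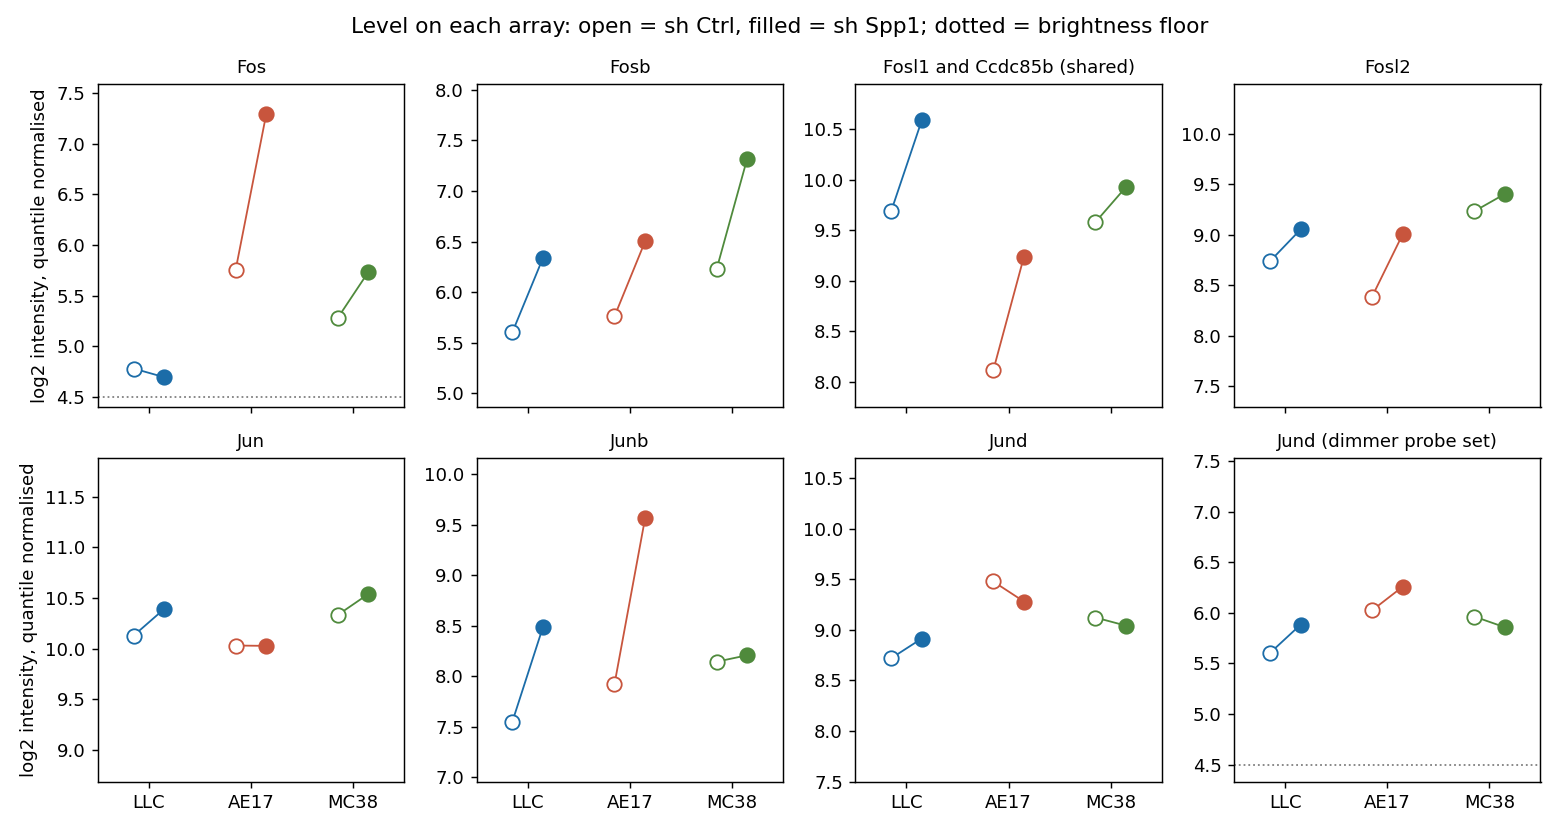
Log2 intensity after quantile normalization (y axis) of each AP-1 probe set on the 6 arrays, by cell line (x axis), with sh Ctrl as open and sh Spp1 as filled circles, 1 array each. Every panel spans the same number of log2 units, and the steep lines are Fos in AE17, from 5.76 to 7.30, and Junb in AE17, from 7.92 to 9.56.

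None of the 6 members tested passed. With limma, blocking on the cell line and adjusting by Benjamini-Hochberg over all 16797 genes, 0 genes (0%) reached an adjusted p under 0.05, and 1017 (6.05%) had an unadjusted p under 0.05. Fosb was the 1 member among these, with an unadjusted limma p of 0.00584, an adjusted p of 0.723 and a 95% interval of 0.39 to 1.33 for its log2 ratio. The adjusted p was also 0.723 for Fos, Fosl2 and Junb, 0.787 for Jun and 0.968 for Jund. The limma intervals were -0.29 to 1.56 for Fos, -0.11 to 0.85 for Fosl2, -0.29 to 0.60 for Jun, -0.01 to 1.77 for Junb and -0.50 to 0.44 for Jund. An exact sign-flip test of 3 lines cannot go below p = 0.25, so none was used.

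**Figure D2:**
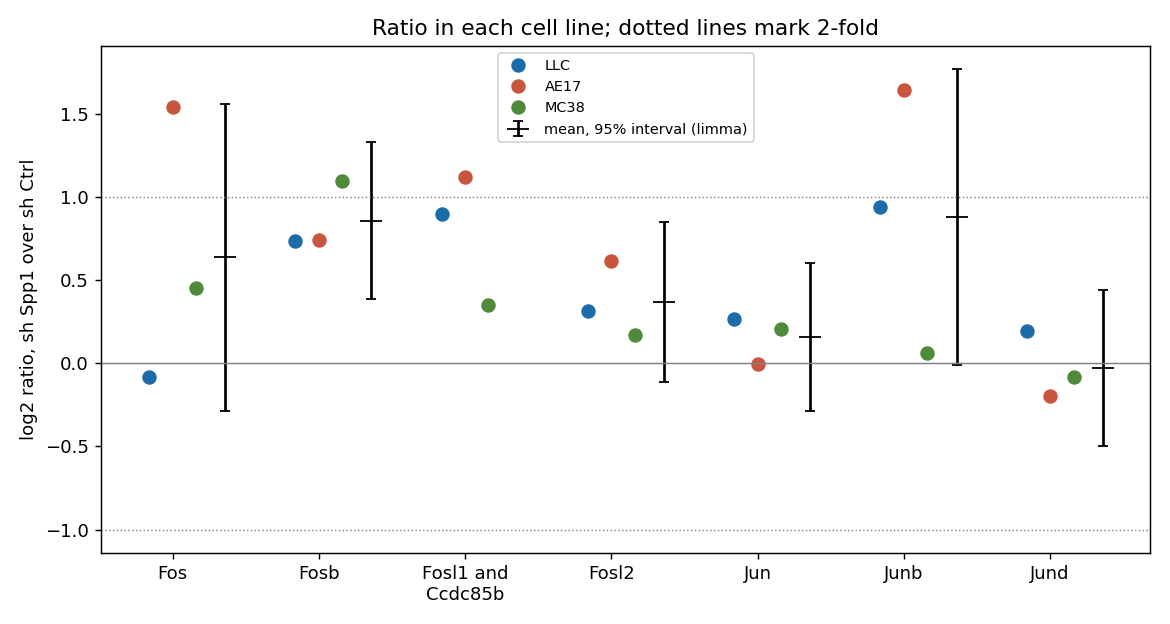
Log2 ratio of sh Spp1 over sh Ctrl (y axis) for each AP-1 gene (x axis), with 1 point per cell line and the mean with its 95% interval from limma in black (no interval is drawn for the probe set shared by Fosl1 and Ccdc85b). Fosb has all 3 points between 0.74 and 1.10, while Junb runs from 0.06 to 1.64 and Fos from -0.09 to 1.54.

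Counted by line, 5 of the 6 members with a probe set of their own had a ratio above 0 in LLC, as did 4 in AE17 and 5 of them in MC38. In all 3 lines the ratio was above 0 for 3 of 6, Fosb, Fosl2 and Junb, against 16.8% of all genes tested. Without AE17, 4 of 6 were above 0 in both remaining lines, with Jun as the addition, against 30.2% of genes. This was counted after seeing the AE17 arrays stand apart from each other. A ratio of at least 2-fold higher was reached by 0 members in LLC, where 1.75% of genes did, by Fos and Junb in AE17, where 9.9% did, and by Fosb in MC38, where 0.882% did. As deposited the same members reached it, with 0.714%, 10.1% and 2.12% of genes in LLC, AE17 and MC38. Centred on the array medians, the 2-fold mark was reached by 3 members in LLC, Fosl2, Jun and Junb, where 15.9% of genes did, by Fos, Fosl2 and Junb in AE17, where 19% did, and by Fosb in MC38, where 5.03% did. A ratio above 0 in all lines was then found for 5 of 6, all but Fos, against 41.5% of genes, and as deposited for 4 of 6, Fosb, Fosl2, Jun and Junb, against 12.3%. No member was 2-fold lower in any line after quantile normalization, where 1.81% of genes were in LLC, 8.71% in AE17 and 1.7% in MC38. In LLC, AE17 and MC38 the median log2 ratio of the 6 was 0.29, 0.68 and 0.19, beside 0.03, -0.04 and 0.02 for all genes. Each line had 1 array per label, so a difference of the ratios between lines could not be tested.

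The scaling of the arrays bore on most of these ratios. In the values as deposited the median gene had a ratio of -0.46, -0.23 and 0.08 in LLC, AE17 and MC38, so each gene was also set against it. Relative to the median gene as deposited, Junb had shifts of 1.17, 2.03 and 0.27 in LLC, AE17 and MC38, and Fosb 0.47, 0.71 and 1.06. Both had shifts above 0 in every line under either scaling, as did Fosl2, Jun and the probe set shared by Fosl1 and Ccdc85b. The shift of Junb in MC38 was 0.045 after quantile normalization. The share of all genes with such shifts was not counted. The median shift of the 6 members was 0.26, 0.72 and 0.17 after quantile normalization and 0.71, 0.85 and 0.36 as deposited. Jun had 0.24, 0.04 and 0.19 after quantile normalization and 0.90, 0.39 and 0.52 as deposited. Jund had 0.17, -0.16 and -0.10, against 0.63, 0.18 and 0.18, so its sign turned in AE17 and MC38. Fos in LLC was below the median gene both ways, at -0.11 and -0.46. In each line the intensities of the sh Spp1 array were spread more widely, measured in log2 units from the 10th to the 90th percentile. The LLC arrays spanned 6.73 and 5.99, the AE17 arrays 6.56 and 6.0 and the MC38 arrays 6.57 and 6.05, sh Spp1 first. The part of this spread in the shifts as deposited was not tested.

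**Figure D3:**
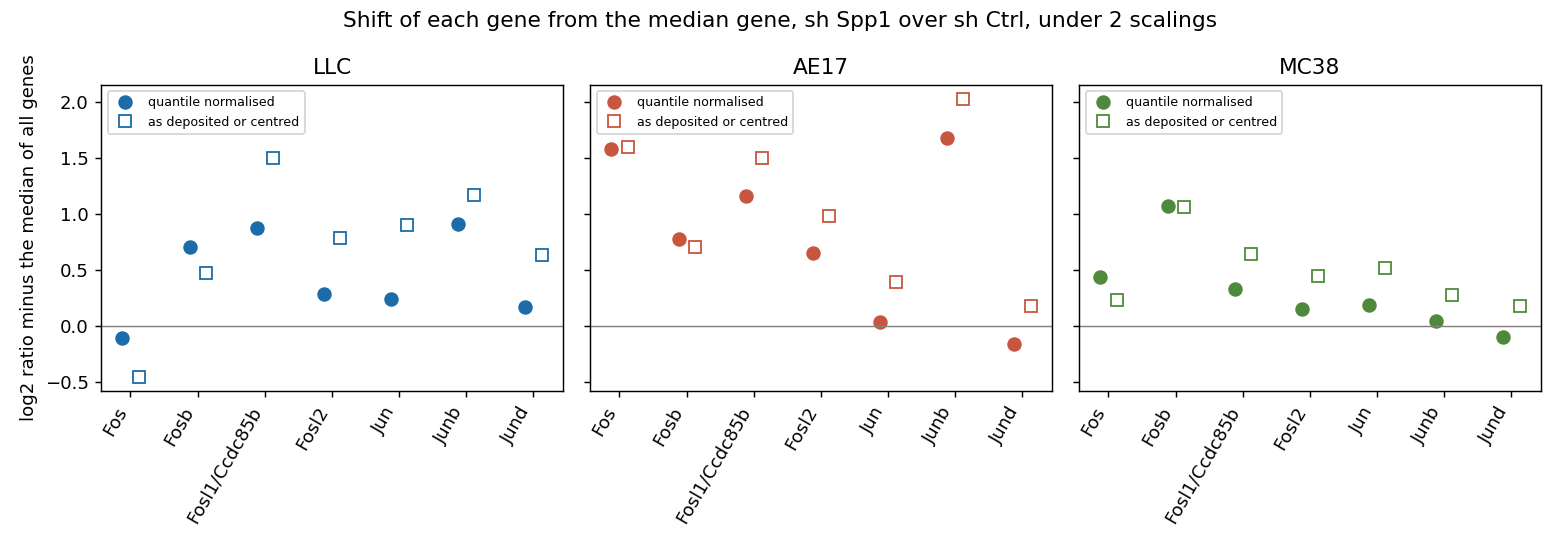
Log2 ratio of sh Spp1 over sh Ctrl minus the median of all genes (y axis) for each AP-1 gene (x axis), with 1 panel per cell line, after quantile normalization (circles) and as deposited or centred, which give the same shifts (squares). Jund lies at -0.16 in AE17 and -0.10 in MC38 as circles and at 0.18 in both as squares, and Fos in LLC lies below 0 both ways.

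The second comparison set the lines against one another. After quantile normalization Fos differed most of the members in level between lines: both LLC arrays, at 4.78 and 4.69, lay below those of MC38, at 5.28 and 5.74, and these below those of AE17, at 5.76 and 7.30. The order was LLC, MC38, AE17. AE17 was higher than LLC by 1.79 log2 units, or 3.47-fold, with a 95% interval of 0.66 to 2.92. The limma adjusted p of this difference was 0.296. The LLC levels are close to the floor and the table holds no detection calls, so the fold is that of the measured intensities and may not be that of the transcript. As deposited the difference was 1.22, less than the 1.30 by which Fosb in MC38 exceeded AE17. MC38 lay above LLC by 0.77, with an interval of -0.36 to 1.90, and below AE17 with a difference of -1.02, with an interval of -2.15 to 0.11. Neither neighbour in that order was separated beyond the spread.

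Jund had the same order, with LLC at 8.72 and 8.91, MC38 at 9.12 and 9.04 and AE17 at 9.48 and 9.28, and the arrays of the 3 lines did not overlap. In the dimmer Jund probe set they did for LLC, at 5.60 to 5.88, and MC38, at 5.86 to 5.96, with AE17 above both. The AE17 difference from LLC was 0.56, with an interval of -0.01 to 1.14, but -0.08 in the values as deposited. Jun was lowest in AE17, where both arrays had 10.03, and LLC and MC38 overlapped above it. The MC38 difference from AE17 in Jun was 0.41, with an interval of -0.14 to 0.95, and 0.92 as deposited.

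Fosl2 was highest in MC38, whose arrays at 9.23 and 9.40 lay above the other 4, the highest of which had 9.05. Its MC38 difference from AE17 was 0.62, with an interval of 0.03 to 1.21 and a limma adjusted p of 0.363, and it was 1.21 as deposited. Fosb had line means of 5.97, 6.13 and 6.77 in LLC, AE17 and MC38, with overlapping arrays. The MC38 difference from LLC in Fosb was 0.80, or 1.74-fold, with an interval of 0.23 to 1.38 and a limma adjusted p of 0.304. Junb had line means of 8.02 in LLC, 8.18 in MC38 and 8.74 in AE17, and the arrays of all lines overlapped. The probe set shared by Fosl1 and Ccdc85b was lowest in AE17, at 8.11 and 9.24, below the other 4 arrays. Its AE17 difference from LLC was -1.46 with a standard error of 0.27, and limma gave an adjusted p of 0.256.

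Of 18 differences between lines in the 6 members, 0 passed limma at an adjusted p under 0.05, and 4 had an unadjusted p under 0.05. Over all 16797 genes 0% passed in each contrast, and an unadjusted p under 0.05 was reached by 11.5% for MC38 against LLC, 12.8% for AE17 against LLC and 13.2% for MC38 against AE17. The error of these contrasts holds the responses of each line to the hairpin. Both arrays of AE17 lay above the other 4 for 2 of 6 members, Fos and Jund, against 14.7% of genes, and below them for 1, Jun, against 7.57%. The LLC arrays lay below the other 4 for 2, again Fos and Jund, against 11.6%, and above them for 0, against 7.72%. The MC38 arrays lay above the other 4 for 1, Fosl2, against 8.48%, and below them for 0, against 11.4%. With the AE17 sh Ctrl array left out, the Fos difference of AE17 from LLC was 2.47 with a limma adjusted p of 0.0126, and that of MC38 from AE17 was -1.70 with 0.0329. With the AE17 sh Spp1 array left out instead, which has the highest Fos level, they were 1.11 with a limma adjusted p of 0.129 and -0.34 with 0.552. In both fits the lone AE17 array adds nothing to the error and is assumed to vary like those of the other lines. That error rests on the LLC and MC38 arrays, with 1 residual degree of freedom. Leaving out either AE17 array gave 1032 genes past the test for MC38 against LLC.

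In level, the members did not follow 1 common pattern over the arrays. Among 15 pairs of members the correlation of the levels ran from r = -0.43, between Fos and Jun, to 0.82, between Fosb and Fosl2. These r are over 6 arrays that share 3 lines, and hold the differences between lines. With the line means removed, r ran from -0.77, between Fos and Jund, to 0.98, between Fosl2 and Junb. Fos and Jun then had 0.12, and every pair below 0 included Jund. Such r rest on 1 ratio per line. Genes most like each member over the same arrays were ranked by Pearson r. Clone names, predicted genes, microRNA genes and Olfr or Vmn symbols were passed over. For Junb these were Taf11 at 0.995, Slc27a3 at 0.992 and Zfp36 at 0.990. Zfp36 encodes tristetraprolin, which binds short-lived messages and promotes their decay. Its LLC arrays had 6.88 and 8.08, those of AE17 7.30 and 10.14 and those of MC38 7.57 and 7.55, sh Ctrl first. The AE17 sh Spp1 array was thus the highest for Zfp36 and for Junb, and the MC38 pair was flat for both.

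For Fosl2 the most alike were Nr4a1 at 0.991, Shh at 0.984 and Gcnt4 at 0.983. Nr4a1, an immediate early nuclear receptor, had 7.46 and 7.79 on the LLC arrays, 7.13 and 7.77 on those of AE17 and 8.0 and 8.33 on those of MC38. For Fos they were the glutathione peroxidase Gpx1 at 0.997, the phosphatase Dusp14 at 0.993 and Dgat1 at 0.992. Fosb was followed by Pcdh1 at 0.988, Nme6 at 0.979 and Lrriq3 at 0.976, and Jun by Aebp2 at 0.987, Stard6 at 0.985 and Car15 at 0.984. Jund had Csrp2 at 0.988, Vsx1 at 0.984 and the mitochondrial gene ND6 at 0.982. With 16797 genes and 6 arrays, high correlations arise in number, and these are given as descriptions.

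The genes around AP-1 were then read from 4 lists, in which 0 genes passed limma at an adjusted p under 0.05. Of 21 kinases and factors upstream of Fos and Jun that were tested, 25 being listed, 5 had a ratio above 0 in all lines and 6 below 0, beside 16.8% and 15.5% of all genes. In LLC, AE17 and MC38 their medians were -0.14, -0.14 and 0.15 on the log2 scale. The highest means belonged to Map2k3, a kinase of p38, at 0.67 ± 0.38 (SD, n = 3 lines), Map2k2, a kinase of ERK, at 0.63 ± 0.29, and the factor Mef2d at 0.49 ± 0.24. Lowest were the kinase Rps6ka3 at -0.76 ± 0.82, Map2k6, also a kinase of p38, at -0.68 ± 0.39, and the JNK gene Mapk9 at -0.38 ± 0.48. The kinases that act on p38 thus stood at both ends of the list.

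Among 19 tested of 21 other bZIP partners, 3 were above 0 in all lines and 4 below, beside 16.8% and 15.5% of all genes, and the medians were -0.06, 0.14 and -0.12 in LLC, AE17 and MC38. The small Maf proteins Maff and Mafk had means of 0.50 ± 0.31 and 0.47 ± 0.48 (SD, n = 3 lines), and the stress factor Atf3 had 0.39 ± 0.64. Creb5 had -0.60 ± 0.36, Atf2, a partner of Jun, -0.44 ± 0.08, and Creb1 -0.24 ± 0.58. Atf2 had ratios of -0.53, -0.37 and -0.41 in the 3 lines, close to one another, but its mean was -0.04 relative to the median gene as deposited.

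Of 16 genes of Fos and Jun turnover or repression 11 were tested, 2 above 0 in all lines and 0 below, beside 16.8% and 15.5% of all genes, with medians of 0.05, 0.22 and 0.16. Zfp36 had the highest mean, 1.34 ± 1.44 (SD, n = 3 lines), followed by its relative Zfp36l2 at 0.44 ± 0.40 and Men1, whose product menin binds JunD, at 0.31 ± 0.55. The ubiquitin ligases and adaptors Cop1, Itch and Det1 had the lowest, -0.31 ± 0.68, -0.26 ± 0.57 and -0.17 ± 0.55. In AE17 these 3 had -1.08, -0.91 and -0.79, and in LLC and MC38 they lay between -0.06 and 0.23.

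Of 32 genes known as AP-1 targets 25 were tested. In all lines 4 had ratios above 0 and 4 below, beside 16.8% and 15.5% of all genes, and the medians were 0.15, 0.35 and -0.02 in LLC, AE17 and MC38. Past 2-fold, LLC had 3 of them higher and 4 lower, AE17 had 9 and 2, and MC38 had 1 and 4. Of all genes, 3.56% were past 2-fold either way in LLC, while 18.6% were in AE17 and 2.59% were in MC38. Plaur, the urokinase receptor, had ratios of 1.19, 1.43 and 0.62 in LLC, AE17 and MC38. Tgfb1 had 0.42, 2.76 and 0.16, and the matricellular gene Ccn2 0.05, 2.86 and -0.02, so both had their large value in AE17.

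The lowest means belonged to the chemokine Ccl2 at -2.15 ± 0.96 (SD, n = 3 lines), the gelatinase Mmp9 at -1.21 ± 0.77 and the collagenase Mmp13 at -0.85 ± 1.70. Mmp13 had -1.95 in LLC and -1.71 in MC38 but 1.11 in AE17. Genes known as targets therefore lay at both ends, as the plot of target ratios shows. They were listed from general knowledge and not from binding in these cells. Ccl2 had 11.78 and 8.59 on the LLC arrays, 11.83 and 10.54 on those of AE17 and 12.16 and 10.18 on those of MC38, sh Ctrl first. Its ratio was below 0 in every line, as it was for 15.5% of all genes tested. Mmp13 had 4.12 on the LLC sh Spp1 array, under the brightness floor, and 4.53 on the AE17 sh Ctrl array and 4.69 on the MC38 sh Spp1 array, just above it, so the sizes of its ratios and its place in the list are uncertain.

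The direction of the lists depended on the scaling. Relative to the median gene, the other bZIP partners had median shifts of -0.09, 0.17 and -0.14 in LLC, AE17 and MC38 after quantile normalization and 0.20, 0.24 and 0.05 as deposited. The upstream list had -0.17, -0.11 and 0.13, against 0.33, 0.16 and 0.29. The turnover list had 0.03, 0.26 and 0.14, against 0.52, 0.59 and 0.36, and the targets 0.12, 0.39 and -0.04, against 0.55, 0.75 and 0.11. Only the turnover list was above the median gene in all lines under both scalings. Among the genes named from the lists, the mean shift turned from below to above 0 as deposited for Creb1, at 0.19, Itch, at 0.11, and Cop1, at 0.12. Ccl2, Mmp9 and Mmp13 kept means below 0 as deposited, at -1.73, -1.25 and -1.12, and Zfp36, Tgfb1 and Plaur kept means above 0, at 1.54, 1.52 and 1.38.

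**Figure D4:**
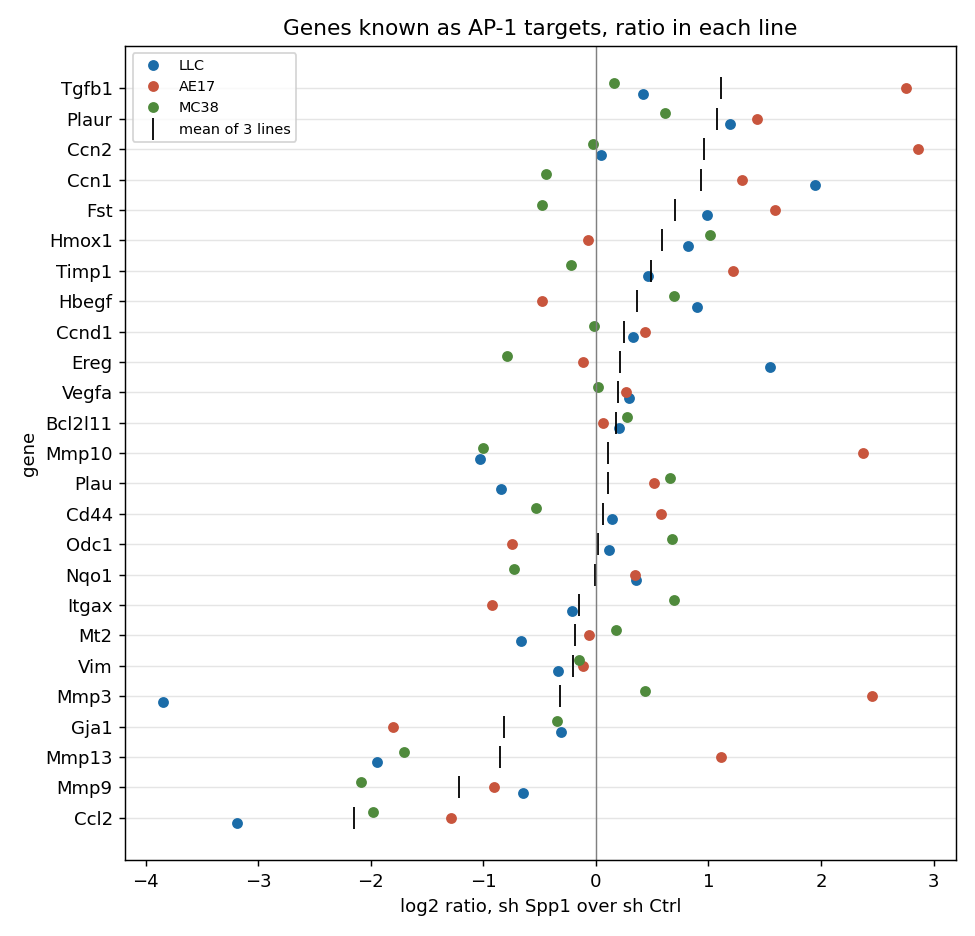
Log2 ratio of sh Spp1 over sh Ctrl (x axis) for the 25 tested genes known as AP-1 targets (y axis, ordered by mean), with 1 point per cell line and a bar at the mean. Plaur lies above 0 in every line, Ccl2 and Mmp9 lie below 0 in every line, and Tgfb1 and Ccn2 have their highest point in AE17, at 2.76 and 2.86.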

How the data were processed

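Per the labels, total RNA was labelled with biotin using a whole-transcript kit. The deposited table holds 1 linear intensity per probe set and array for 41345 probe sets. Per the submitters' processing notes RMA was used, and the design text names GeneSpring GX 12.5. Background and scaling settings are not given in the sources used here.

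Intensities were log2 transformed and quantile normalized with limma 3.58.1 in R 4.3.3. Names came from the platform annotation: 23521 probe sets had 1 symbol, 1814 several and 16010 none, and 23328 matched RefSeq by Entrez ID. The test took genes of 1 symbol whose mean reached the 30th percentile, 16797 in all, with the brightest probe set for each. The fit had the cell line and the shRNA label as terms (lmFit, eBayes, Benjamini-Hochberg), and was tested on simulated data. The pairing comes from the cell line label. Nothing says that arrays came from separate cultures, so p-values measure only the spread between these samples.

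Members and lists were chosen with earlier results of these data known. Named were all members, the 3 genes most like each among the symbols not passed over, and the 3 highest and 3 lowest of each list. Older list symbols were updated through RefSeq synonyms, and proteins were not used here. Alternatives covered scaling, filter, probe set choice, block, variance prior, probe sets of several symbols and arrays left out. Figures used matplotlib 3.10.9 in Python 3.11.15.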

Additional observations from a re-analysis of the deposited data

Results flagged for a closer look

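Fos, Jun and Jund had ratios of sh Spp1 over sh Ctrl above 0 in 1 line and below 0 in another, and the difference was not tested, since each line has 1 array per label. For Fos the AE17 ratio of 1.54 and the LLC ratio of -0.09 differed by 1.63 log2 units. The AE17 ratios come from the pair of arrays that stood apart from each other. For Jun the LLC and AE17 ratios differed by 0.27, and for Jund by 0.39. The AE17 ratio of Jun was -0.0032, both arrays having 10.03, and 0.16 in the values as deposited, so its sign is not settled.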

How the results depend on the processing

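Over the shRNA comparison, every alternative gave 0 genes past limma's threshold, and the member ratios kept their direction in 62 of 66 combinations of member and alternative. Those that turned were all of Jund, whose mean log2 ratio was 0.13 as deposited, 0.60 with arrays centred and 0.054 with probe sets averaged. With 1 line left out it ran from -0.14 to 0.057, the latter without AE17. The smallest adjusted p of a member was 0.126, with arrays centred, and 0.943 was the smallest over all genes without the cell line block. Between lines 245 of 252 kept their direction. As deposited, Fosb and Jund turned to -0.50 and -0.084 for AE17 against LLC, and Junb and Jund to 0.038 and 0.29 for MC38 against AE17. With 1 array left out, Junb ran from -1.18 to 0.046 for MC38 against AE17, turning without either of the sh Spp1 arrays of these lines, and from -0.46 to 0.77 for MC38 against LLC, turning without the MC38 sh Ctrl array.

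Where 0 genes passed between lines, the values as deposited gave 225 for MC38 against LLC, 103 for AE17 against LLC and 287 for MC38 against AE17, and the cell line alone gave 89, 9 and 100. For MC38 against LLC no filter gave 44, the 50th percentile 42 and a variance trend 42. The 50th percentile gave 27 for MC38 against AE17, and the trend 1 for AE17 against LLC. With each array left out in turn, an alternative chosen after seeing the data like that with probe sets of several symbols, the counts ran from 0 to 1032, 0 to 1443 and 0 to 1157 for MC38 against LLC, AE17 against LLC and MC38 against AE17, and only leaving out an AE17 array gave over 0. Without the AE17 sh Spp1 array they were 1032, 511 and 1092. At 1.5-fold 2662, 6766 and 1911 genes differed within LLC, AE17 and MC38, against 607, 3291 and 440 at 2-fold. As deposited LLC had 3350 and MC38 684, and centred 2863 and 1063. With an AE17 array left out, the error rested on the LLC and MC38 arrays alone, with 1 residual degree of freedom. The cause of the changes in these counts was not tested. With 1 array per label and line, signal close to the floor limits Fos in LLC.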
